A study of Rattus norvegicus with 8 samples.

Results

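Transcripts of the superoxide dismutases, catalase, the glutathione peroxidases and the Nrf2 pathway were followed in rat diaphragm after myocardial infarction (MI). The group was chosen by gene symbol, not by values, though with earlier results of these data known. It comprised Sod1, Sod2, Sod3, Cat, Gpx1, Gpx3, Gpx4, Gclc, Nqo1 and Nfe2l2. All 10 were found among the 17055 rows of the count table, and all 10 had enough reads to be tested. The diaphragm, the main muscle of inspiration, came from 8 Sprague-Dawley rats 16 weeks after surgery, and each animal gave 1 RNA sequencing library. In the 4 MI animals (replicates 1 to 4) the left anterior descending coronary artery was tied through an opened chest. The 4 Sham animals (replicates 5 to 8) went through a similar operation, with isoflurane, ventilation and thoracotomy, without the tie. Not given in the sources used here are the age at surgery, the sex and the size of the infarcts.

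Superoxide dismutases turn superoxide into hydrogen peroxide, and catalase and the glutathione peroxidases remove the peroxide. Glutathione, the tripeptide that feeds the peroxidases, is made by an enzyme whose catalytic subunit is encoded by Gclc. Nfe2l2 encodes Nrf2, the transcription factor that Keap1 holds in the cytoplasm and marks for degradation. When oxidants modify Keap1, Nrf2 enters the nucleus, pairs with a small Maf protein and switches on genes such as Nqo1 and Gclc through antioxidant response elements. Nrf2 is controlled mainly as a protein, so its messenger need not follow its activity. Skeletal muscle fibres produce superoxide in mitochondria and at NADPH oxidases, and these enzymes are among their standing defences.

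Library totals lay between 7941402 and 24967251 counts, Sham replicate 7 being the deepest and Sham replicate 8 the shallowest, and a member had between 129 counts (Gclc) and 40453 counts (Sod2) in a library. The limit that 3 counts set was at most 0.378 CPM, far under the members' levels. Levels below are CPM, counts scaled to library size after TMM adjustment, which are comparable between animals for 1 gene but not between genes, since transcript length was not divided out. The defining skeletal muscle transcripts were abundant, with Acta1, skeletal actin, between 41268 and 52627 CPM. In whole muscle, fewer cells of a type and less RNA per cell cannot be told apart. Of the other cell types, red blood cell markers went with the groups, with a summed level of 369 to 809 CPM in MI against 236 to 379 in Sham. The sums overlapped through MI replicate 1 and Sham replicate 8, and all 6 tested markers (of 10 listed) had a log2 fold change above 0, with a median of 1.10 and none called. By the edgeR test described below, all 6 had an unadjusted p under 0.05, against 3.67% of all genes in that direction. For 2 of them the groups did not overlap, against 2.09% of all genes. Macrophage markers summed to 90.0 to 158 CPM in MI and 98.6 to 234 in Sham, the highest value belonging to Sham replicate 7, as did that of the lymphocyte markers (31.1 CPM). All 8 macrophage markers had a log2 fold change below 0 (median -0.28), as had all 5 smooth muscle markers (median -0.16). All 6 endothelial markers lay above 0 (median 0.055), and none of these markers was called.

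No member passed the test between MI and Sham. Each gene was tested on both sides with edgeR's quasi-likelihood method, p-values were adjusted by Benjamini-Hochberg across all 10522 genes tested, and the threshold was 0.05. It called 0 of the 10 members, and the background was 0% of all genes tested in either direction. Log2 fold changes were above 0 for 8 members and below 0 for Sod3 and Gpx3, with a median of 0.12, while 48.7% of all genes lay above 0 and their median was -0.0070. Sod1 was the 1 member with an unadjusted p under 0.05, which 8.14% of all genes had, 3.67% in its direction, and 1 of 10 members is close to that share. Cat was the 1 member whose 4 MI values all lay above the 4 Sham values, as did 2.09% of all genes, and 1 gene of 10 is too few to set against that share. DESeq2 called 14 genes of the whole table, 0.0855% of those tested as higher and 0.0475% as lower, limma-voom called 0, and neither called a member. The 95% interval of the difference held 0 for 9 of the 10 members, and for 8 of the 10 it stayed within a 1.5-fold change in either direction. The widest reach was that of Nqo1 upwards, to 1.76-fold, and of Sod3 downwards, to 0.674 times the Sham level.

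**Figure D1:**
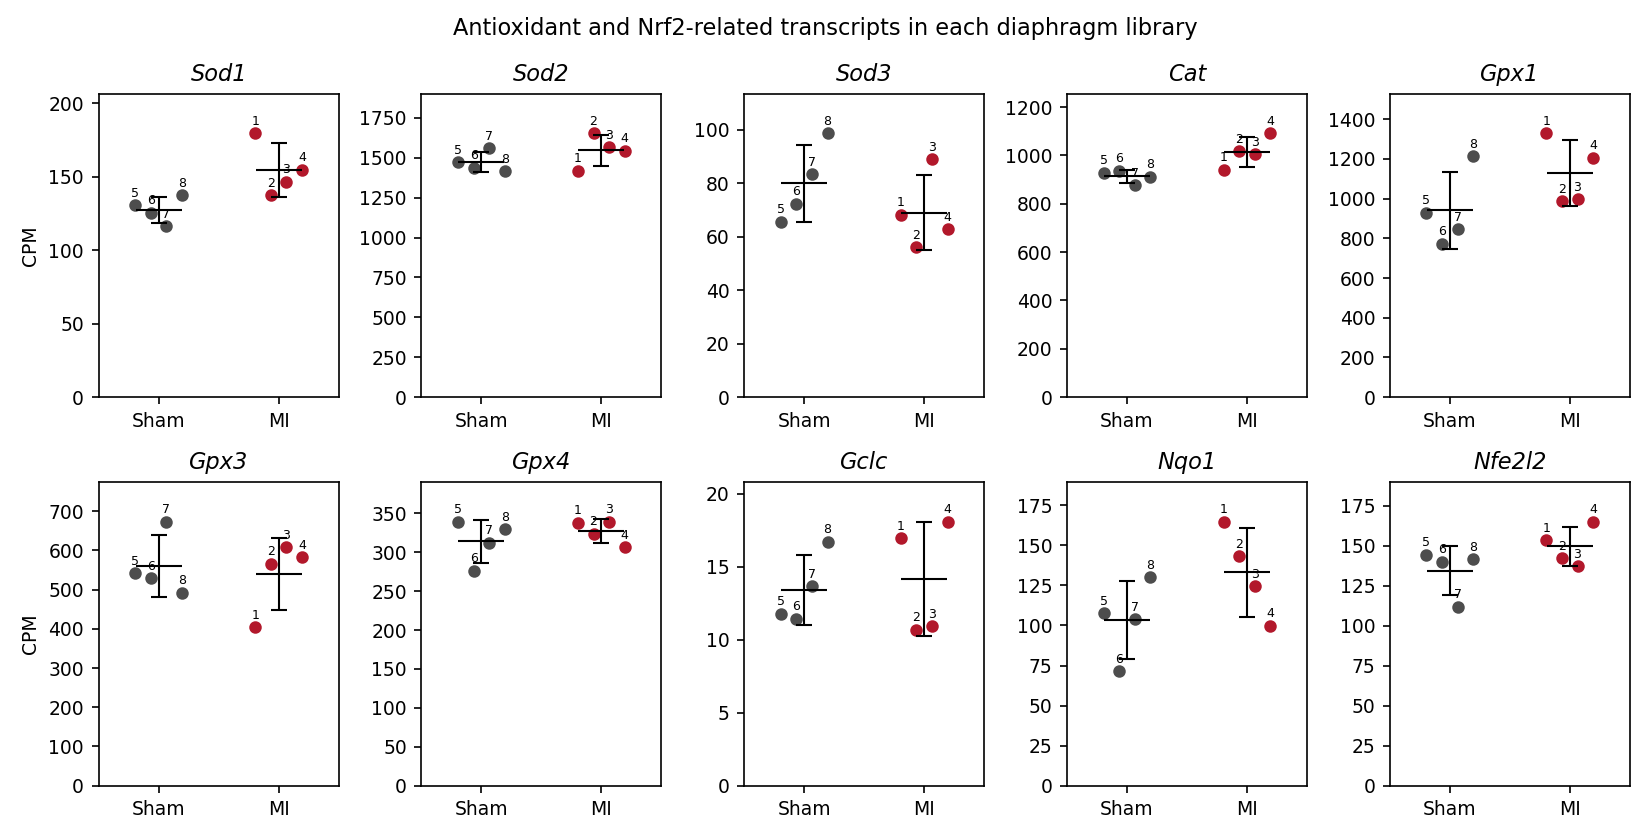
CPM of each member (vertical axis, from 0) in the 4 Sham libraries (grey) and the 4 MI libraries (red), each point numbered with its replicate; the horizontal bar is the mean and the whiskers 1 SD. The 4 MI points of Cat sit above all Sham points, and the lowest MI point of Sod1 (137.6) meets the highest Sham point (137.7).

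**Figure D2:**
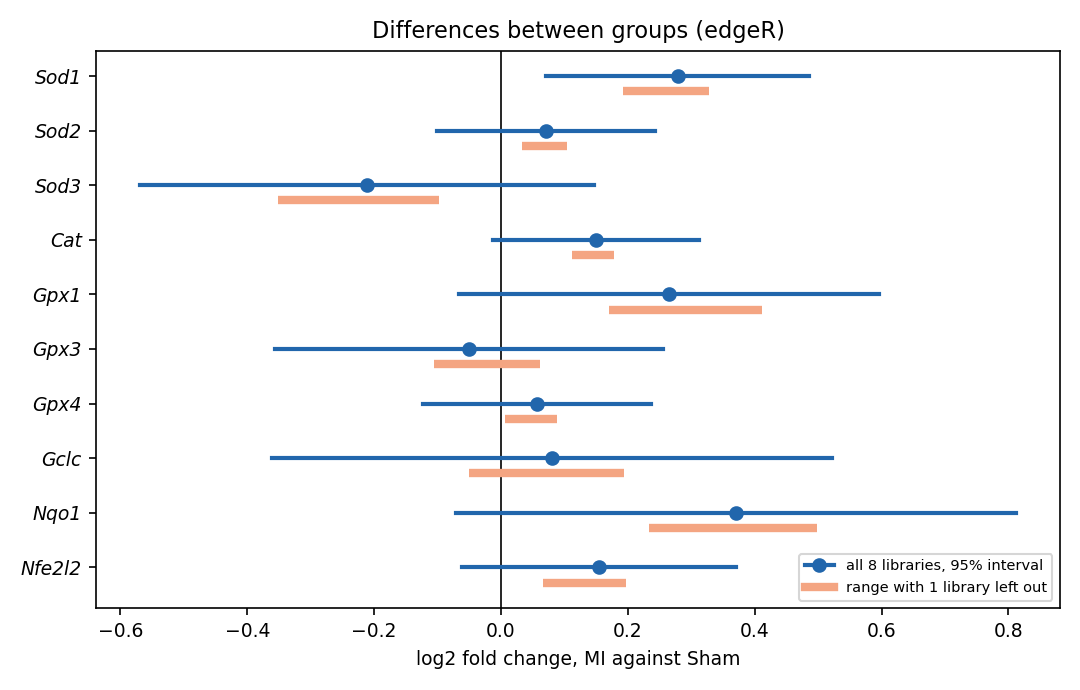
Log2 fold change of each member, MI against Sham (horizontal axis), from edgeR with its 95% interval (blue), and the range of the value with 1 library left out (orange). The interval of Sod1 alone lies wholly above 0, and the orange range crosses 0 for Gpx3 and Gclc.

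The 3 dismutases differ in where they work. Sod1, the copper-zinc enzyme of the cytosol, was at 179.8, 137.6, 146.8 and 154.8 CPM in MI replicates 1 to 4 and at 130.6, 125.7, 116.6 and 137.7 CPM in Sham replicates 5 to 8. MI replicate 1 stood highest, the other 3 MI animals lay close to or above the top of the Sham range, and the groups overlapped by the width of 1 pair, MI replicate 2 and Sham replicate 8. The means were 155 ± 18.1 CPM in MI and 128 ± 8.84 in Sham (SD, n = 4 each). The log2 fold change was 0.28 ± 0.094 (SE), with a 95% interval of 0.071 to 0.49 and an edgeR adjusted p of 0.601 (DESeq2 0.466), and it was 0.19 without MI replicate 1. The animals' numbers in the titles fall into a low and a high range, and within these the difference in mean log2 CPM was 0.27 (MI replicates 1 and 2 against Sham replicate 5) and 0.25 (MI replicates 3 and 4 against the other 3 Sham animals). Red blood cells are rich in Sod1, and their markers lay above Sham in MI. MI replicate 1, with the highest Sod1, had the lowest marker sum of the MI animals, 369 CPM, under the 379 CPM of Sham replicate 8, and the part of red blood cells in the Sod1 difference was not tested.

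Sod2, the manganese enzyme of the mitochondrial matrix, was at 1419.7, 1654, 1567 and 1544 CPM in MI and 1472, 1439, 1561 and 1417 CPM in Sham. Its 8 values were among the steadiest of the group, with a coefficient of variation of 6.27% in MI and 4.29% in Sham against medians of 14.1% and 12.3% over all genes tested, and MI replicate 1 lay with the lowest Sham animal. Between the groups its log2 fold change was 0.071 ± 0.078 with an interval of -0.10 to 0.24 (adjusted p = 0.802), and 0.034 without MI replicate 2, the highest of the 8.

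Sod3, the secreted enzyme that binds to the extracellular matrix and vessel walls, lay in the other direction. It was at 68.2, 56.1, 88.8 and 62.7 CPM in MI and 65.6, 72.2, 83.2 and 98.7 CPM in Sham. MI replicate 2 was lowest and Sham replicate 8 highest, while MI replicate 3 exceeded 3 of the 4 Sham animals. Its log2 fold change was -0.21 ± 0.16, with an interval of -0.57 to 0.15 and an adjusted p of 0.713, and it was -0.10 without Sham replicate 8, -0.13 without MI replicate 2 and -0.35 without MI replicate 3. Smooth muscle markers, from the cells that are a known source of the enzyme, summed to 138 to 177 CPM in MI and 139.8 to 192 in Sham, with the highest Sham sum also in Sham replicate 8 and the highest MI sum in MI replicate 2, and all 5 of them had a log2 fold change below 0. Sham replicate 8 also had the highest sum of mesothelial markers, 239 CPM, and MI replicate 2 the lowest, 35.2 CPM. That sum rests on 2 of 4 listed markers, mostly on Msln (197 CPM in Sham replicate 8 and 29.2 in MI replicate 2). The part of these cells in the Sod3 values was not tested.

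The dismutases need metal, and 9 genes of copper, zinc and manganese handling were read beside them. Of these 6 could be tested, and 0 were called. A log2 fold change above 0 was found for 4, against 48.7% of all genes, and the median of the list was 0.11. Atox1, the copper chaperone that hands copper to the secretory pathway, was at 22.7, 17.0, 21.8 and 20.8 CPM in MI and 14.6, 14.7, 16.4 and 15.9 CPM in Sham. All 4 MI animals lay above all Sham animals, as for 2.09% of all genes, and the log2 fold change was 0.42 ± 0.12 (adjusted p = 0.601). Atp7a, the copper pump that receives it, was at 11.1, 7.89, 5.0 and 4.50 CPM in MI and 4.10, 5.53, 3.70 and 4.67 in Sham. Its log2 fold change of 0.69 ± 0.28 (adjusted p = 0.601) rested on MI replicates 1 and 2, since replicates 3 and 4 lay inside the Sham range, and it was 0.38 without MI replicate 1. For Atp7a the difference in mean log2 CPM was 1.16 in the low and 0.049 in the high animal number range. For Atox1 it was 0.42 and 0.44. Mtf1, the metal-sensing transcription factor, had a log2 fold change of -0.22 ± 0.14 (-0.13 without MI replicate 1), and the manganese and zinc importer Slc39a14 one of 0.12 ± 0.17 (0.014 to 0.20 with 1 library left out, lowest without MI replicate 3 and highest without MI replicate 4).

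Catalase, the peroxisomal enzyme that splits hydrogen peroxide, separated the groups by a small step. Cat was at 941, 1017, 1005 and 1092 CPM in MI and 929, 937, 878 and 912 CPM in Sham. Its lowest MI value, in replicate 1, was just above its highest Sham value, in replicate 6, and MI replicate 4 stood highest. The means were 1014 ± 62.1 and 914 ± 26.2 CPM (SD, n = 4 each), a coefficient of variation of 2.87% in Sham, the lowest of the 10 members. This gave a log2 fold change of 0.15 ± 0.074 with an interval of -0.013 to 0.31, an edgeR adjusted p of 0.626 and 0.587 with DESeq2. Within the animal number ranges the difference in mean log2 CPM was 0.074 in the low and 0.21 in the high range. Red blood cells also carry catalase. For the markers as for Cat, MI replicate 4 was highest, at 809 CPM, and MI replicate 1 lowest of its group, while Sham replicate 8, with the highest marker sum of the Sham animals, lay below 2 of the other 3 for Cat. The part of red blood cells in the Cat difference was not tested.

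Genes that build peroxisomes and bring proteins such as catalase into them were divided. Of 19 genes, 17 could be tested, 0 were called, 8 lay above 0 and 9 below, and the median log2 fold change was -0.0058. Pex2, part of the ubiquitin ligase that recycles the import receptor, had the smallest p, at 0.13 ± 0.082, with MI replicate 1 apart from the rest (108 CPM, and 0.057 without it). Pex26, of the machine that extracts the receptor from the membrane, was at -0.25 ± 0.22 (-0.12 without MI replicate 4, -0.16 without Sham replicate 7 and -0.44 without MI replicate 2).

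The glutathione peroxidases are selenoproteins with different places of work. Gpx1, the abundant cytosolic and mitochondrial enzyme, was at 1329.7, 986, 996 and 1206 CPM in MI and 929, 773, 847 and 1213 CPM in Sham. All 4 MI animals exceeded 3 of the 4 Sham animals, and Sham replicate 8 lay with the upper MI values. Gpx1 had a log2 fold change of 0.26 ± 0.15 with an interval of -0.067 to 0.60 (adjusted p = 0.646). It was 0.17 without MI replicate 1 and 0.41 without Sham replicate 8. Red blood cells hold much Gpx1, and Sham replicate 8 had the highest marker sum of the Sham animals. MI replicate 1, highest for Gpx1, had the lowest sum of the MI animals, and the part of these cells was not tested.

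Gpx3, the secreted peroxidase of plasma and tissue fluid, was at 404, 566, 607 and 583 CPM in MI and 542, 529, 673 and 492 CPM in Sham. MI replicate 1 was the lowest and Sham replicate 7 the highest of all 8, and the other 6 lay between. Its log2 fold change of -0.050 ± 0.14 (interval -0.36 to 0.26, adjusted p = 0.929) turned to 0.061 without MI replicate 1 and to 0.045 without Sham replicate 7, so it has no settled direction.

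Gpx4, the enzyme that reduces lipid peroxides in membranes and restrains ferroptosis, was at 338, 324, 339 and 307 CPM in MI and 339, 276, 312 and 329 CPM in Sham. Only Sham replicate 6 lay apart, on the low side, and without it the log2 fold change of 0.057 ± 0.082 (interval -0.12 to 0.24, adjusted p = 0.855) was 0.0062. It was 0.036 without MI replicate 1, 0.087 without MI replicate 4 and 0.088 without Sham replicate 5. RefSeq lists pseudogenes of Gpx4 and Sod2, and the treatment of reads shared with such copies is not known here, so the values of both genes are uncertain to that extent.

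Genes of selenoprotein synthesis and the other selenoproteins lay on both sides of 0. Of 22 genes listed, 17 were found and 15 tested, 0 were called, 6 lay above 0 and 9 below, and the median log2 fold change was -0.030. Sephs2, which makes the activated selenium donor and is itself a selenoprotein, was at 38.6, 40.5, 36.6 and 38.3 CPM in MI and 44.4, 43.0, 44.9 and 50.6 CPM in Sham. Its 4 MI values lay below all Sham values, as for 2.46% of all genes, with a log2 fold change of -0.25 ± 0.084 (adjusted p = 0.601). Scly, which recovers selenium from selenocysteine, was at -0.24 ± 0.15 (-0.13 without MI replicate 4). Selm, a selenoprotein of the endoplasmic reticulum now called Selenom, was at 0.23 ± 0.18 (0.13 without Sham replicate 7 and 0.39 without Sham replicate 5). Pstk, the kinase that prepares the selenocysteine tRNA, was at 0.10 ± 0.081 (0.068 without MI replicate 1).

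Glutathione synthesis was represented by Gclc, the catalytic subunit of glutamate-cysteine ligase and the least counted of the 10 genes. It was at 17.0, 10.7, 10.9 and 18.1 CPM in MI and 11.8, 11.5, 13.7 and 16.7 CPM in Sham. The MI animals fell into a pair near 11 CPM, below every Sham animal, and a pair above every Sham animal, so that the coefficient of variation was 27.6% in MI and 18.0% in Sham. Gclc's log2 fold change of 0.080 ± 0.20 (interval -0.36 to 0.52, adjusted p = 0.919) turned to -0.031 without MI replicate 1 and -0.050 without MI replicate 4.

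Around it, 40 genes of glutathione synthesis, recycling and use were read. In all, 39 were found and 32 tested, and 0 were called. Of the 32, 26 lay above 0 and 6 below, while 48.7% of all genes lay above 0. The median log2 fold change of the list was 0.10. An unadjusted p under 0.05 was found for 4 genes, all above 0, against 3.67% of all genes, and the groups did not overlap for 2 of these, against 2.09% of all genes. Mgst3, a membrane-bound glutathione transferase and peroxidase, was at 256, 291, 263 and 304 CPM in MI and 234, 239, 235 and 235 CPM in Sham. The 4 Sham animals were within 6 CPM of each other and all below the lowest MI animal, with a log2 fold change of 0.24 ± 0.074 (adjusted p = 0.601). Gsta3, an alpha-class glutathione transferase, was at 224, 162, 221 and 207 CPM in MI and 90.9, 153, 127 and 159 CPM in Sham. The lowest MI value was just above the highest Sham value, Sham replicate 5 was the lowest of all, and the log2 fold change was 0.62 ± 0.17 (adjusted p = 0.601). Without Sham replicate 5 the log2 fold change of Gsta3 was 0.46. The alpha-class transferases are close copies whose symbols have been exchanged over time, so which copy this row counted is uncertain. Chac2, an enzyme that degrades glutathione, was at 0.39 ± 0.12, and Gstp1, a pi-class transferase, at 0.31 ± 0.12 (0.22 without MI replicate 1). Within the low animal number range, where Sham replicate 5 was the 1 control, and the high range, the difference in mean log2 CPM was 0.59 and 0.089 for Gstp1. It was 1.06 and 0.55 for Gsta3, 0.22 and 0.26 for Mgst3, and 0.13 and 0.56 for Chac2.

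Nfe2l2, the gene of Nrf2 itself, was at 154, 142, 137 and 165 CPM in MI and 144, 140.1, 112 and 142 CPM in Sham. Of the Sham animals 3 lay within 5 CPM of each other inside the MI range, and Sham replicate 7 lay far below all others. For Nfe2l2 the log2 fold change was 0.15 ± 0.10 with an interval of -0.062 to 0.37 (adjusted p = 0.678), and 0.067 without Sham replicate 7, the library with the most macrophage and lymphocyte marker reads. The part of those cells was not tested.

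Nqo1, a quinone reductase and standard readout of Nrf2 activity, was at 165, 143, 125 and 99.9 CPM in MI and 108, 71.3, 104 and 130.2 CPM in Sham. It had the largest difference of the 10 members and also the largest spread over the 8 animals. MI replicates 1 and 2 lay above every Sham animal, MI replicate 4 below 3 of the 4, and Sham replicate 6 lowest. The means were 133 ± 27.6 and 103 ± 24.2 CPM (SD, n = 4 each). For Nqo1 the log2 fold change was 0.37 ± 0.20 with an interval of -0.071 to 0.81 (adjusted p = 0.641), and 0.23 without Sham replicate 6 and 0.25 without MI replicate 1. Within the animal number ranges the difference in mean log2 CPM was 0.51 in the low range, where Sham replicate 5 was the 1 control, and 0.17 in the high range.

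To show what the start sites of these genes hold, the 250 bases before and 50 after each start were taken from RefSeq (assembly GRCr8, not the build of the counts) and searched on both strands for the core of the antioxidant response element, TGACNNNGC. Of the members 8 had a single entry of that length, and the core was found in 2 of the 8, Sod2 and Nfe2l2, against 12.1% of all 33469 promoters in the table. A match of letters is not a site of binding, and no match says only that these letters are not in this window. Shown are the windows of Sod2 and Nfe2l2, with the match in capitals, and that of Nqo1, the textbook target, which holds none. Each is written 5′ to 3′ along the gene.
Sod2 (GRCr8 chr1:50050119-50050418, minus strand): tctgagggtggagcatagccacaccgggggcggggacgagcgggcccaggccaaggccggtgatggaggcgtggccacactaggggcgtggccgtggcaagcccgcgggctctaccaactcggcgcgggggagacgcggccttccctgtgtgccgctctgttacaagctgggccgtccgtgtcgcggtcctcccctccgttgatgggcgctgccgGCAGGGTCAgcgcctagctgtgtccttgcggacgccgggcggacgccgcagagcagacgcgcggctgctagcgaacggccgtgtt
Nfe2l2 (GRCr8 chr3:81028950-81029249, minus strand): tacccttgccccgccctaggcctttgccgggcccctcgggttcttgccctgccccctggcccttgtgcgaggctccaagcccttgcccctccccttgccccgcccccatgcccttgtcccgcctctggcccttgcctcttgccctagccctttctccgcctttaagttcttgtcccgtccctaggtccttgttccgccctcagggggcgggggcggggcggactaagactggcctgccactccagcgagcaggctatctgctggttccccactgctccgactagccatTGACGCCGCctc
Nqo1 (GRCr8 chr19:52220218-52220517, minus strand): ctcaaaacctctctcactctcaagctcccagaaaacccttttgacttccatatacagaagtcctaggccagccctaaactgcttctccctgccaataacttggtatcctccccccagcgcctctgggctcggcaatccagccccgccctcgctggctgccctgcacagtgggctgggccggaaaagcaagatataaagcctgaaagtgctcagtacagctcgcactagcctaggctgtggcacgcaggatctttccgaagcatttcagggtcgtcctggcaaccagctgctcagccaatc
The match in Sod2 was on the reverse strand with its first base 35 bases before the start, and that in Nfe2l2 on the forward strand at base 39 of the transcript.

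Most partners and regulators of Nrf2 had a log2 fold change below 0. Of 20 genes, 19 were found and tested, and 0 were called. Of the 19, 6 lay above 0 and 13 below, while 48.7% of all genes lay above 0. The median log2 fold change of the list was -0.047, against -0.0070 for all genes. An unadjusted p under 0.05 was found for 4 genes, all below 0, a direction in which 4.47% of all genes had one. Keap1, the sensor that targets Nrf2 for degradation, was at 39.1, 61.8, 66.6 and 41.0 CPM in MI and 58.2, 72.8, 80.0 and 78.9 CPM in Sham. MI replicates 1 and 4 lay well below every Sham animal and the other two among them, with a log2 fold change of -0.47 ± 0.18 (adjusted p = 0.601). Mafk, a small Maf partner that binds DNA with Nrf2, was at 12.5, 27.8, 22.8 and 19.0 CPM in MI and 25.5, 32.2, 32.6 and 28.5 CPM in Sham. MI replicate 1 was lowest, the log2 fold change was -0.53 ± 0.21 (adjusted p = 0.601), and without that animal it was -0.36. Syvn1, a ubiquitin ligase of the endoplasmic reticulum that can also target Nrf2, was at 9.69, 11.9, 10.1 and 10.4 CPM in MI and 14.7, 12.4, 16.2 and 13.4 in Sham. Its groups did not overlap, with a log2 fold change of -0.44 ± 0.13 (adjusted p = 0.601). Trim21, a ubiquitin ligase that acts on the Keap1 partner p62, was at -0.46 ± 0.17 from 3.80 against 5.24 CPM, also without overlap, and 2.46% of all genes lay so.

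Other known Nrf2 targets were spread on both sides of 0. Of 30 genes, 29 were found and 28 tested, and 0 were called. Gclm, Slc7a11, Gsr, Gsta4 and Gstm1 also belong to the glutathione list, and Sqstm1 and Mafg to that of the Nrf2 partners. The counts and medians of these lists are therefore not of separate genes. Of the 28, 18 lay above 0 and 10 below, while 48.7% of all genes lay above 0. The median log2 fold change of the list was 0.039. An unadjusted p under 0.05 was found for 4, all above 0, against 3.67% of all genes. Pir, an iron-binding nuclear protein, was at 29.9, 31.2, 33.4 and 38.5 CPM in MI and 24.0, 29.0, 23.0 and 28.7 CPM in Sham. Every MI animal lay above every Sham animal, as for 2.09% of all genes, with a log2 fold change of 0.35 ± 0.12 (adjusted p = 0.601). Prdx1, a cytosolic peroxiredoxin, and Txn1, thioredoxin, had log2 fold changes of 0.28 ± 0.10 (0.18 without MI replicate 1) and 0.26 ± 0.10, both with their highest value in MI replicate 1. The biliverdin reductase Blvrb had a log2 fold change of 0.28 ± 0.11 with MI replicate 4 inside the Sham range.

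**Figure D3:**
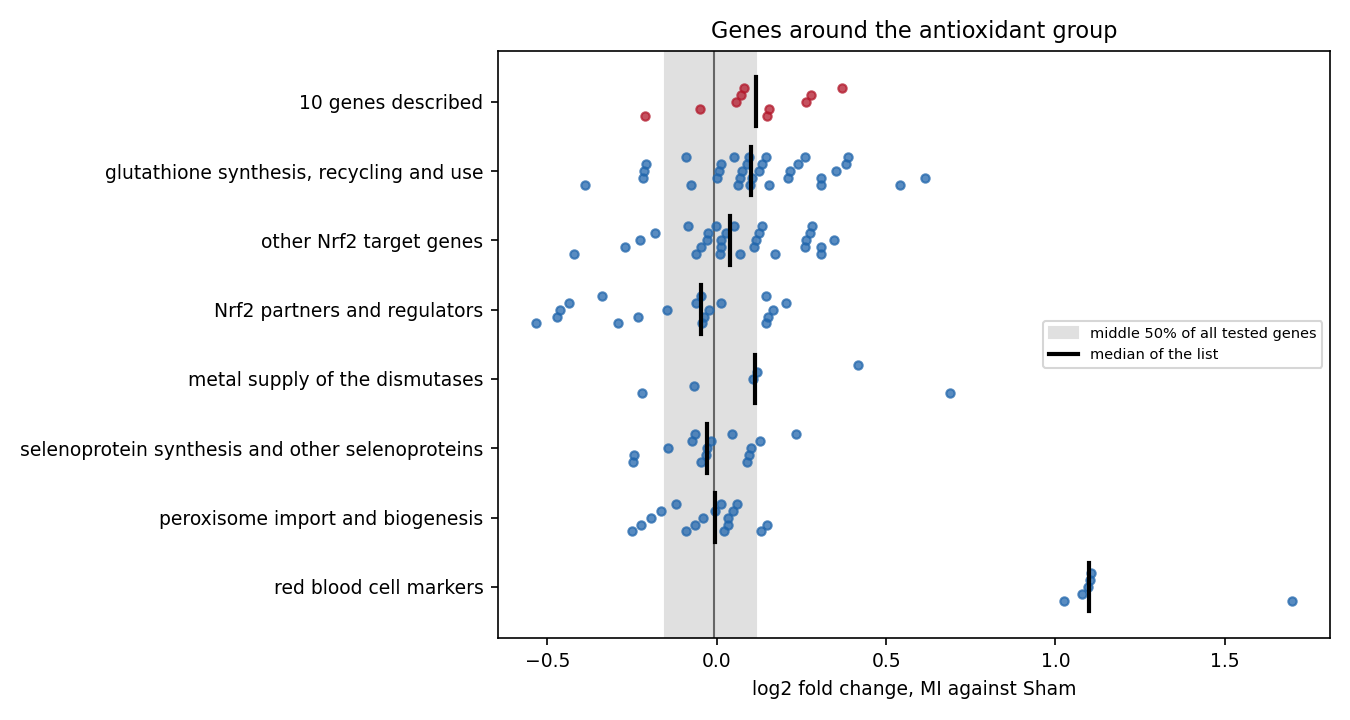
Log2 fold change, MI against Sham (horizontal axis), of each tested gene of the lists, 1 point a gene, with the median of each list (black bar), the median of all tested genes (thin line) and their middle 50% (grey band). The medians of the 7 antioxidant lists lie between -0.047 and 0.12, while red blood cell markers lie at 1.10. A gene shared by lists is shown in each.

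**Figure D4:**
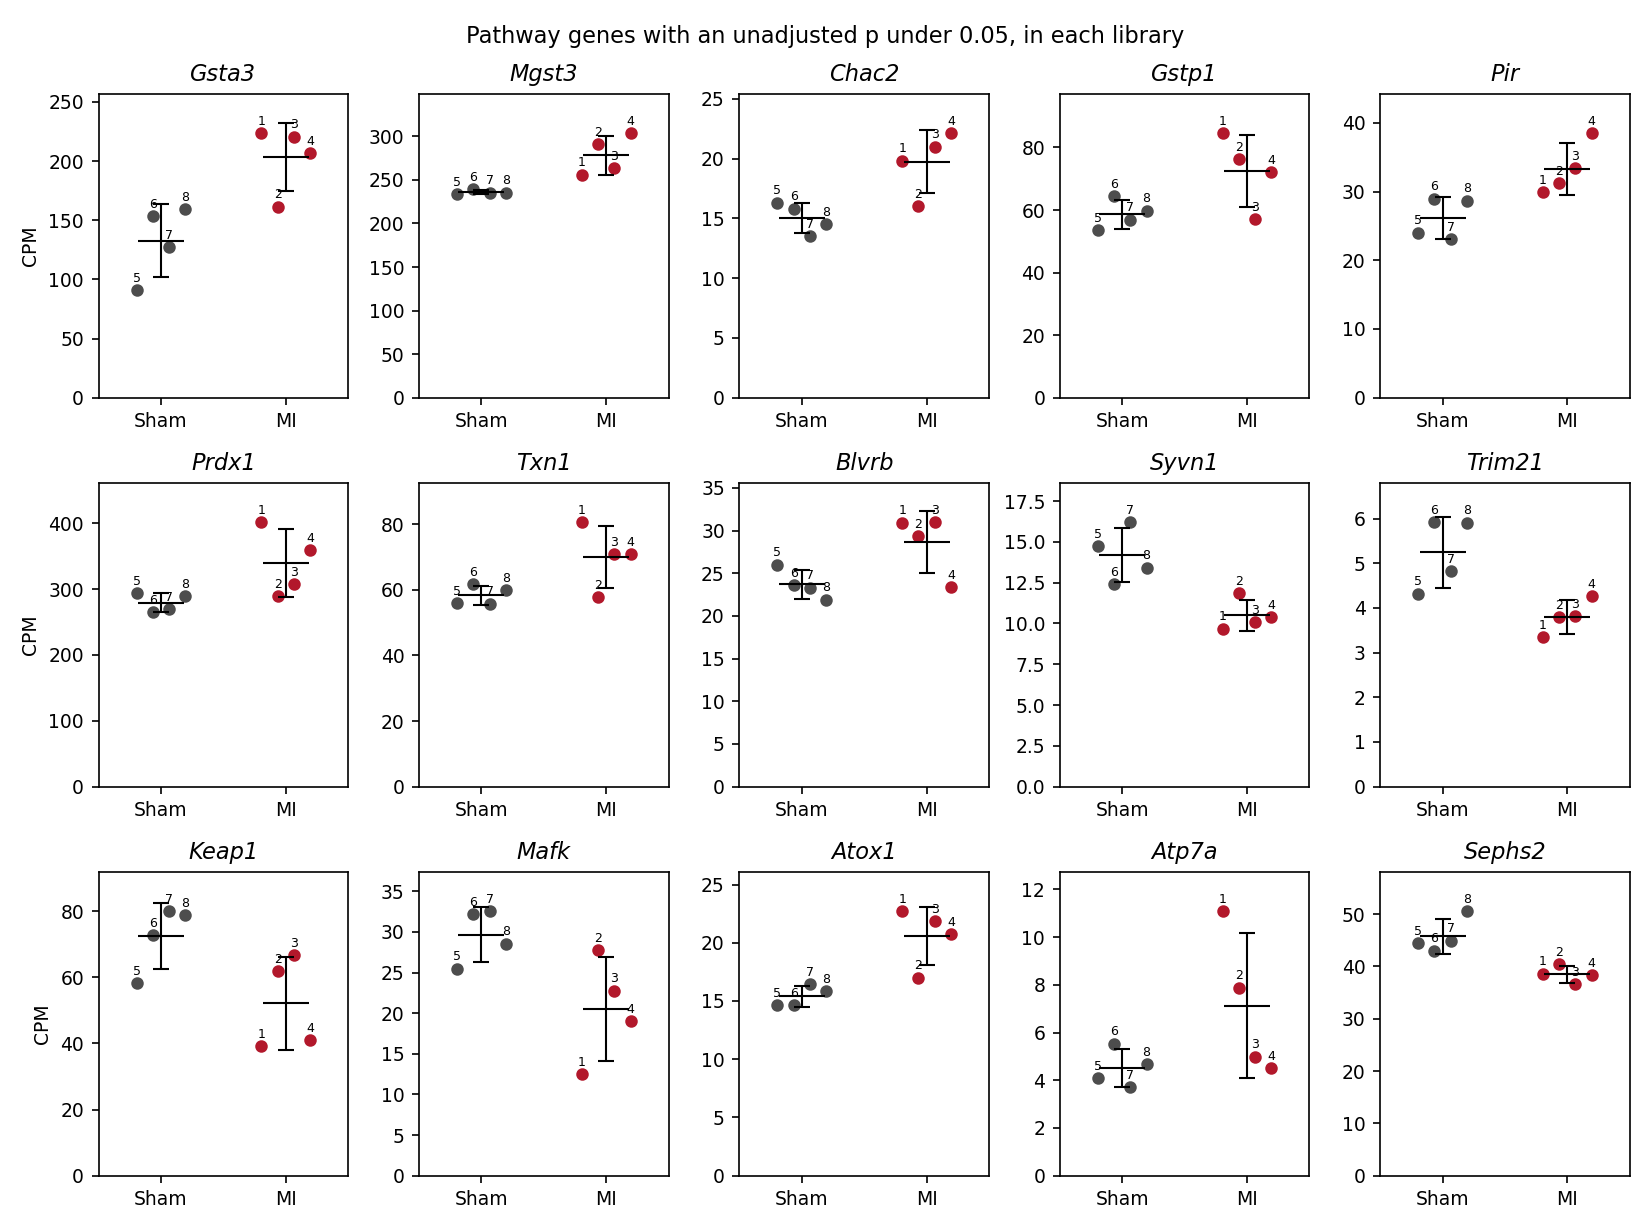
CPM (vertical axis, from 0) in each Sham (grey) and MI (red) library of the 15 named pathway genes with an unadjusted p under 0.05, points numbered by replicate, with mean and SD. Keap1 and Mafk show MI replicate 1 at the bottom (39.1 and 12.5 CPM), and Atox1, Mgst3 and Pir show every MI point above every Sham point.

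Between animals the members did not move as one. MI replicate 1 held the highest value of Sod1, Gpx1 and Nqo1 and the lowest of Gpx3, and it also had the lowest Keap1 and Mafk. Its slow myosin transcript Myh7 (2283 CPM) and its fast myosin transcript Myh2 (2980 CPM) were both the lowest of the 8 libraries. The slow troponin Tnnt1 (4598 CPM) and the fast troponin Tnnt3 (14716 CPM) were not lowest there. MI replicate 4 held the highest Cat, Gclc and Nfe2l2. It also had the highest summed adipocyte markers, 418 CPM against 200.3 to 241 in the other MI animals and 164 to 239 in Sham. Its fibroblast markers summed to 3497 CPM, against 1974 to 2465 in the other MI animals and 1852 to 2553 in Sham. Of the tested markers, 5 of 6 for adipocytes and 5 of 7 for fibroblasts had a log2 fold change above 0, and none was called. An unadjusted p under 0.05 (edgeR) was found for 3 fibroblast markers, all above 0, against 3.67% of all genes in that direction. The part of these cells in the members' values was not tested. Sham replicate 6 had the lowest Gpx1, Gpx4 and Nqo1, and Sham replicate 7 the lowest Sod1, Cat and Nfe2l2. Within a group the spread ran from 2.87% (Cat) to 23.5% (Nqo1) of the mean in Sham and from 4.62% (Gpx4) to 27.6% (Gclc) in MI. In each group 5 of the 10 members varied more than the median gene.

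**Figure D5:**
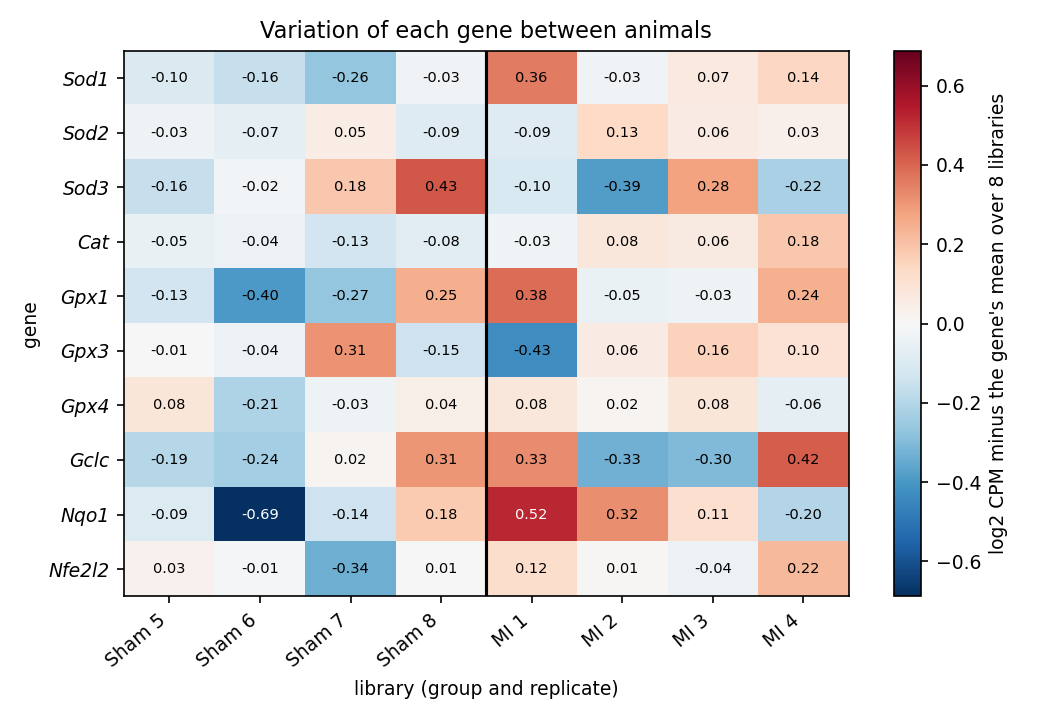
Log2 CPM of each member (rows) in each library (columns, Sham left and MI right of the line) minus the gene's mean over the 8 libraries, red above and blue below. The most extreme cells are Nqo1 in Sham replicate 6 and in MI replicate 1, while Sod2 and Cat stay pale throughout.

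For each member the 2 genes of most similar pattern were sought among 6626 others with a mean of at least 10 CPM, by the mean absolute difference of centred log2 CPM over the 8 libraries. This measure favours steady genes and is given as a description. For Sod1 these were Zfp386 (0.0368) and Psma2 (0.0392), the latter a proteasome subunit. The nearest to Cat were Zzz3 (0.0293) and Atp5a1 (0.0319), the latter a subunit of ATP synthase, and the nearest to Sod2 were Tspyl1 (0.0232) and Pxdn (0.0262). Gpx4 was closest to Mrpl34 (0.0326) and Srsf11 (0.0375), Gpx1 to Lsm3 (0.0642) and Med29 (0.077) and Nfe2l2 to Klhl9 (0.0406) and Osbpl9 (0.0413). Gpx3 lay next to Zfp598 (0.06) and Mvk (0.0681), and Gclc next to Dab2 (0.0625) and Tmem98 (0.0809). Sod3 (Tmem127, 0.105, and Cd82, 0.107) and Nqo1 (Wtap, 0.127, and Ap4s1, 0.137) had no gene as close.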

How the data were processed

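Per the labels' protocols, total RNA came from snap-frozen diaphragm, and SMARTer Ultra Low and KAPA Hyper reagents gave the libraries. The deposited table holds raw counts of reads for each gene symbol in each of the 8 animals. The submitters' processing notes name build rn5 and the tools STAR 2.5.0a, bcl2fastq, Cufflinks, TopHat and TopHat2. Not given in the sources used here are the counter, the annotation, the strand setting and the treatment of multiply mapped reads. Reads of overlapping or antisense genes may therefore be mixed.

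Counts were tested with edgeR 4.0.16 in R 4.3.3: filterByExpr by group (10522 genes kept), TMM scaling and the robust quasi-likelihood test. Two-sided p-values were adjusted by Benjamini-Hochberg across the kept genes, with a threshold of 0.05. SEs are the log2 fold change divided by the square root of F, and 95% intervals use the matching t quantile. CPM are TMM-scaled counts. Log2 CPM used a prior count of 2. Totals of 7941402 to 24967251 counts limit precision, as does variation between animals (common biological coefficient of variation 17.3%). The median SE over all genes was 0.145. Limits from counts cover counting error only. The scripts were tested on simulated data. Lists were described by counts and medians, with no set test. Alternatives were RLE factors, library totals alone, other filters, DESeq2 1.42.0, limma-voom (limma 3.58.1), no robust estimation, the range of the animal numbers as a term, thinned counts, a threshold of 0.1 and each library left out in turn. Groups come from the sample titles, which give no pairing.

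Named genes are all 10 members, up to 4 genes of each pathway list with the smallest p, the nearest genes and markers. Of the 24 pathway genes so chosen, 2 are not reported here. The members, lists and tests were chosen with earlier results of these data known. Older symbols were matched through RefSeq (GRCr8), used for names and promoter sequence only. Of the symbols, 25 read as dates (0.109% of counts). They stayed in the tests and are not named.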

Additional observations from a re-analysis of the deposited data

Results flagged for a closer look

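Of 68 groups of 4 libraries (the 10 members and 24 chosen pathway genes in MI and in Sham), 2 held a library whose gap to its nearest neighbour exceeded Dixon's critical share of the group's range (chance gives about 1 in 20). Nfe2l2 was at 112 CPM in Sham replicate 7, against 140.1 CPM in the nearest Sham animal. Pex2 was at 108 CPM in MI replicate 1, against 91.2 CPM in the nearest MI animal.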

How the results depend on the processing

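No member and none of the 24 chosen pathway genes was called under any of the 17 alternative fits or at a threshold of 0.1. Over all genes, edgeR called 0 (856 at an unadjusted p under 0.05), DESeq2 14, and leaving out 1 library gave 0 to 1, the single call coming without MI replicate 1 or MI replicate 3. Of the 10 members, 8 kept their sign in every alternative, and 2 did not: Gpx3 turned from -0.050 and ranged from -0.11 to 0.061 with 1 library left out (0.061 without MI replicate 1 and 0.045 without Sham replicate 7), and Gclc from -0.050 to 0.19 (-0.031 without MI replicate 1 and -0.050 without MI replicate 4). The cause was not tested. All 24 chosen pathway genes kept their sign in these fits, but they were picked for small p, which largely fixes this. Between the low animal number range, where Sham replicate 5 was the 1 control, and the high range some signs differed. The difference in mean log2 CPM was -0.18 (low) and 0.089 (high) for Gpx3 and -0.036 and 0.081 for Gpx4. Among the pathway genes it was 0.21 and -0.56 for Pex26, -0.17 and 0.37 for Selm, and -0.052 and 0.17 for Pstk. Scaling by RLE or library totals moved the median of all genes to -0.0014 and -0.015 and turned no member. The nearest gene of all 10 members was the same with a prior count of 0.5. No paired analysis was possible because the sample titles give no pairing of MI and Sham animals. With 4 animals a group, the members' 95% intervals show the precision reached.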
